A study of Rattus norvegicus with 4 samples.

Results

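The unfolded protein response and the integrated stress response were followed through 10 genes in rat embryonic stem cells (ESCs) with and without Thop1. The genes were selected by their symbols. They were the 3 sensors of endoplasmic reticulum (ER) stress Eif2ak3, Ern1 and Atf6, the transcription factors Xbp1, Atf4 and Ddit3, and the target genes Hspa5, Trib3, Asns and Chac1. All 10 were found among the 34773 genes of the count table, and all 10 passed the filter on low counts that left 15028 genes for testing.

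Cells sense unfolded protein in the ER through 3 membrane proteins. PERK, the product of Eif2ak3, phosphorylates the translation factor eIF2alpha, which lowers protein synthesis in general but favours translation of ATF4. IRE1, from Ern1, splices the Xbp1 mRNA so that it encodes an active factor, and ATF6 is cut in the Golgi to release its own. Other kinases act on eIF2alpha when amino acids or haem are short, or in viral infection, and this shared route to ATF4 is the integrated stress response. Much of this signalling runs through phosphorylation, splicing, cleavage and translation, none of which counts per gene can show.

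The control, the WT of the labels, was DA-5-3GFP, a rat ESC line with the Rex1-GFP reporter, and 3 Thop1-KO subclones of that line, #1, #2 and #3, were set against it. Each culture gave 1 RNA-seq library. Thop1 encodes thimet oligopeptidase, a zinc peptidase that trims peptides leaving the proteasome. Each subclone was picked after Cas9 editing and puromycin selection, so each is 1 clone, and all 4 cultures carry the reporter. The study grew its rat ESCs on feeder cells with 2i and LIF, and describes DA-5-3 as diploid, while the deposited design text speaks of haploid cells.

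The counts on genes summed to between 15405499 and 17936544 a library. Thop1 was at 370 TMM-normalized CPM (counts on the gene scaled to library size) in DA-5-3GFP and at 110, 92.5 and 149 in #1, #2 and #3. ESC markers were present in all 4 libraries, with Pou5f1 at 4794 CPM in DA-5-3GFP and 3889 to 4842 CPM in the subclones, and Nanog at 468 CPM and 334 to 494 CPM. Of the 9 ESC markers found, edgeR called 3, with Fgf4 (10.2 CPM in DA-5-3GFP, 90.4 to 113 CPM in the subclones) and Sall4 (23.6 and 117 to 185 CPM) higher and Utf1 (1566 and 405 to 626 CPM) lower in Thop1-KO. The 9 summed to 9594 CPM in DA-5-3GFP and 7163 to 9236 CPM in the subclones. The 11 fibroblast markers found, which feeder cells could supply, summed to 263 CPM in DA-5-3GFP and 440 (#1), 859 (#2) and 571 (#3) CPM in the subclones, with Thy1, Lum and Dcn at 0 counts in every library. Of the 8 tested, 1 was called higher, and DA-5-3GFP was below all 3 subclones in 5 and above all 3 in 1. The median log2 fold change of the 8 was 1.10, beside 0.06 for all genes tested. The 12 primitive endoderm markers summed to 932 CPM in DA-5-3GFP and to 1443, 1573 and 1997 CPM in #1, #2 and #3, and most of each sum was Lama1 (848 CPM in DA-5-3GFP and 1215, 1361 and 1779 CPM in the subclones). Of the 9 tested, DA-5-3GFP was below all 3 subclones in 7, beside 38.1% of all genes tested, and Lamb1 was called higher. Their median log2 fold change was 1.49, beside 0.06 for all genes tested. The 2 with DA-5-3GFP above all 3 subclones were Gata4 (1.14 CPM in DA-5-3GFP, at most 0.179 CPM in the subclones) and Col4a1 (4.78 and 1.92 to 3.04 CPM), neither of them called. The part of these markers in the results was not tested, and in such bulk samples fewer cells of a type cannot be told apart from less RNA per cell.

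The question was which of the 10 transcripts differed between Thop1-KO and the parental line. Thop1-KO was tested against DA-5-3GFP using edgeR's quasi-likelihood test, with p-values adjusted over all 15028 genes. With a single control library, the error comes from the spread of the 3 subclones, which carries clonal as well as technical differences, and the 1-sided exact permutation test of such a design cannot go below 0.25. At an adjusted p under 0.05, 13.8% of all genes tested were called, 8.62% as higher and 5.17% as lower in Thop1-KO (1295 and 777 genes, or 1056 and 1001 with a correction for gene length). None of the 10 genes was called (0 higher, 0 lower). At an unadjusted p under 0.05, 2 of the 10 passed, Xbp1 and Eif2ak3, beside 34% of all genes. DESeq2's Wald test called these same 2 at an adjusted p under 0.05, beside 21.5% of the genes it tested. DA-5-3GFP lay below all 3 subclones in 3 of the 10 (38.1% of all genes), above all 3 in 2 of them (37.6% of all genes) and within their range in 5. The median log2 fold change was -0.04 over the 10 and 0.06 over all genes tested.

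**Figure D1:**
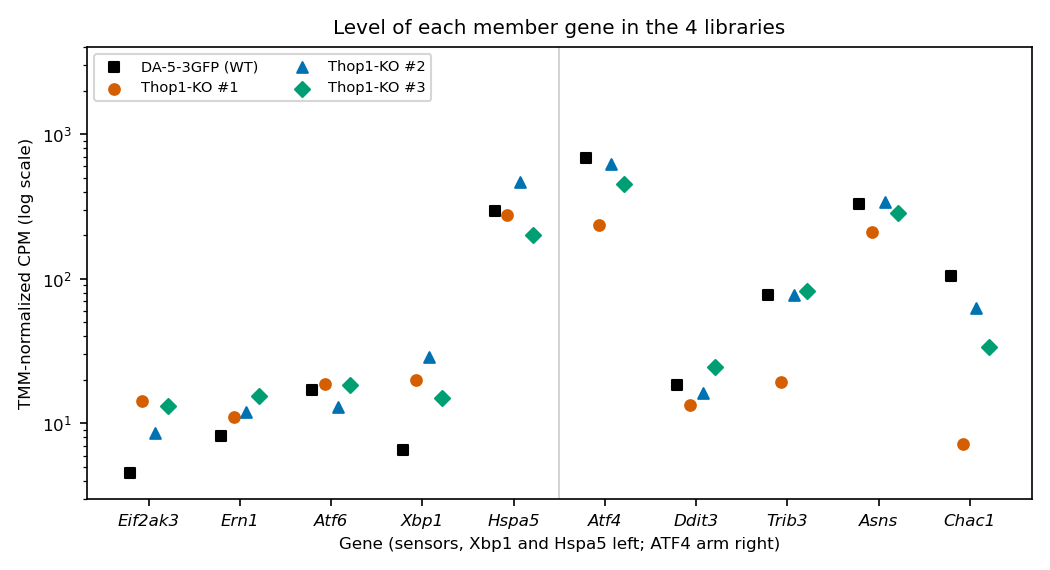
TMM-normalized CPM (log axis) of the 10 genes, 1 point for each library, with the sensors, Xbp1 and Hspa5 on the left and the ATF4 arm on the right. DA-5-3GFP (black squares) is below the 3 subclones for Eif2ak3, Ern1 and Xbp1, and #1 (orange circles) is the lowest subclone for each of the 5 genes of the ATF4 arm.

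Of the 3 sensors, Eif2ak3 had the largest difference. Eif2ak3 (ENSRNOG00000006069, plus strand of chromosome 4, 98648545 to 98709694 in the deposited annotation) was at 4.51 CPM in DA-5-3GFP and 14.2, 8.54 and 13.2 CPM in #1, #2 and #3. The groups did not overlap, and the control value rests on 67 counts, for which counting error alone gives a 95% interval (exact Poisson) of 3.49 to 5.73 CPM. The fitted level was 2.65-fold that of DA-5-3GFP, a log2 fold change of 1.41 (SE 0.46, 95% interval 0.32 to 2.50, edgeR adjusted p = 0.0845), which missed the threshold. With a correction for gene length the log2 fold change was 1.04, and in limma with a pseudocount of 1 it was 0.85, and neither was called. It passed in DESeq2 (adjusted p = 0.0375), and in edgeR without #2, the lowest of the 3 subclones, where the log2 fold change was 1.60 (adjusted p = 0.00524).

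Ern1 (ENSRNOG00000012864, minus strand of chromosome 10, 94588555 to 94681914) was at 8.14 CPM in DA-5-3GFP and 11.1, 12.0 and 15.5 CPM in #1, #2 and #3. All 3 subclones were again above the control, by a log2 fold change of 0.66 (SE 0.38, 95% interval -0.25 to 1.57, edgeR adjusted p = 0.261). With the correction for gene length it was 0.21 (edgeR adjusted p = 0.698). Atf6 (ENSRNOG00000024632, minus strand of chromosome 13, 89055983 to 89242443) was at 17.2 CPM in DA-5-3GFP and 18.8, 13.0 and 18.3 CPM in #1, #2 and #3. The control lay within the range of the subclones, with a log2 fold change of -0.04 (SE 0.36, 95% interval -0.89 to 0.81, edgeR adjusted p = 0.949). These intervals allow a fold of up to 2.96 for Ern1 and 1.76 for Atf6.

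Xbp1 encodes the factor that IRE1 activates, and Hspa5 encodes BiP, the main HSP70 chaperone of the ER lumen, which also binds the sensors. Both genes are textbook targets of ATF6 through the ER stress response element (ERSE; CCAAT, then 9 bases, then CCACG). The element was searched on both strands of the RefSeq promoters of assembly GRCr8, from 250 bases before to 50 bases after the gene start. It was found in 22 of 33469 promoters (0.0657%) and, of the 8 of the 10 genes with a promoter in the table, in Hspa5 and Xbp1. The 250 bases before each start are shown 5′ to 3′, with the element in capitals, because these 2 genes carry it and had different fold changes in Thop1-KO. The Hspa5 sequence is chr3:38452766-38453015 on the plus strand, with the element at -43 to -25 from the start, and the Xbp1 sequence is chr14:84604373-84604622 on the plus strand, with the element at -65 to -47.
Hspa5: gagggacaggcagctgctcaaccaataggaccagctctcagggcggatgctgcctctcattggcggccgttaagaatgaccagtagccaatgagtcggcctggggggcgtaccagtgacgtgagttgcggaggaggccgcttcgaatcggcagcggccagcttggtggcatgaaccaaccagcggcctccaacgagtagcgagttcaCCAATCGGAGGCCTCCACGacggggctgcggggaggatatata
Xbp1: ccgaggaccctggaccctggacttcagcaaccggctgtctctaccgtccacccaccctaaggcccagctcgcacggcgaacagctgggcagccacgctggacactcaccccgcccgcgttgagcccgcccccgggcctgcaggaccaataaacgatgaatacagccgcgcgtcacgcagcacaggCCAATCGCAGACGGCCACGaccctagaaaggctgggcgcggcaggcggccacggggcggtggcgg

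Xbp1 (ENSRNOG00000010298, plus strand of chromosome 14, 85753760 to 85758145 in the deposited annotation) was at 6.59 CPM in DA-5-3GFP and 19.9, 28.8 and 15.0 CPM in #1, #2 and #3. The groups did not overlap, and the control rests on 98 counts, with a 95% counting interval of 5.35 to 8.04 CPM. Xbp1 was fitted at 3.22-fold the control level, a log2 fold change of 1.69 (SE 0.48, 95% interval 0.55 to 2.83, edgeR adjusted p = 0.0618). As with Eif2ak3, the call was missed in edgeR and made in DESeq2 (adjusted p = 0.0050) and in edgeR without #2, its highest subclone (log2 fold change 1.40, adjusted p = 0.00935). The counts add up both splice forms of the transcript, so they do not show how much of it IRE1 had spliced.

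Hspa5 (ENSRNOG00000018294, plus strand of chromosome 3, 13838304 to 13842762) was at 294 CPM in DA-5-3GFP and 277, 466 and 201 CPM in #1, #2 and #3. The control was within the range of the subclones, and the log2 fold change was 0.10 (SE 0.44, 95% interval -0.96 to 1.15, edgeR adjusted p = 0.894), a sign that turned with the gene-length correction (-0.21). The highest subclone was 2.31-fold the lowest, and 24.4% of all genes tested had a ratio at least as large. Xbp1 had the same order of subclones, with #2 highest and #3 lowest and a ratio of 1.92. Subclone #3 was also the lowest subclone in 10 of 18 ER chaperones and folding enzymes and in 9 of the 15 tested genes whose promoter holds the element, beside 24.3% of all genes tested. These counts share genes, because the 9 include Hspa5 and Xbp1 themselves and some of the 10 chaperones.

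**Figure D2:**
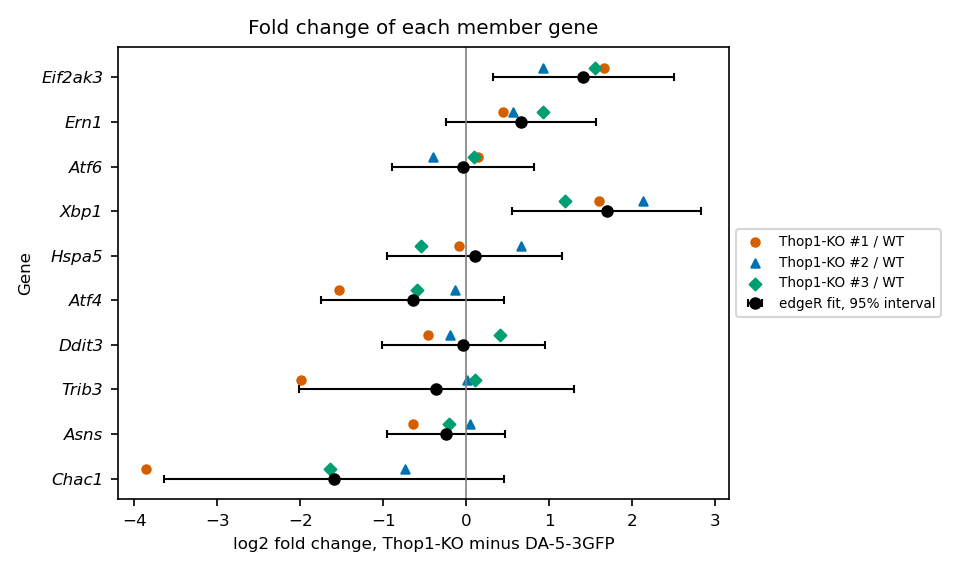
log2 fold change of each gene in Thop1-KO against DA-5-3GFP. Black points and bars are the edgeR fit with its 95% interval, and coloured points are each subclone against the 1 control library. The intervals of Eif2ak3 and Xbp1 lie above 0 and the other 8 cross it, and the 3 subclones spread most for Chac1 and Trib3.

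ATF4, the factor made when eIF2alpha is phosphorylated, had the highest transcript level per length of the 10 genes. Atf4 (ENSRNOG00000017801, plus strand of chromosome 7, 121480723 to 121482772) was at 684 CPM in DA-5-3GFP and 236, 621 and 452 CPM in #1, #2 and #3. All 3 subclones were below the control, #2 only slightly so, and the log2 fold change of -0.65 (SE 0.46, 95% interval -1.75 to 0.45, edgeR adjusted p = 0.351) did not pass the test. Without #2 it was -0.99 and was called (adjusted p = 0.0157). ATF4 protein is set largely by translation and was not measured here.

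Ddit3 encodes CHOP, a partner of ATF4 that promotes cell death under lasting stress. Ddit3 (ENSRNOG00000006789, plus strand of chromosome 7, 70580198 to 70585084) was at 18.4 CPM in DA-5-3GFP and 13.4, 16.1 and 24.4 CPM in #1, #2 and #3, with the control inside the range. Its log2 fold change was -0.04 (SE 0.41, 95% interval -1.02 to 0.95, edgeR adjusted p = 0.960). Ddit3 is uncertain, because it overlaps Mars1, a gene on the other strand with 23818 counts over the 4 libraries, and the kit does not mark strand. Of the 10 genes, none besides Ddit3 overlaps another expressed gene of the table.

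Trib3, Asns and Chac1 are targets of ATF4. Trib3 encodes a pseudokinase that feeds back on ATF4 and AKT, Asns encodes asparagine synthetase, and Chac1 encodes an enzyme that degrades glutathione. ATF4 with a C/EBP partner is known to bind the C/EBP-ATF response element, searched here as TGATGNAA on both strands. These letters were found in 1332 of 33469 promoters (3.98%) and, among the 8 promoters available, in Chac1 and Trib3. Their 250 bases before the start are shown 5′ to 3′ with the match in capitals, read on the opposite strand in both, because these 2 genes differed most among the subclones. The Chac1 sequence is chr3:126795881-126796130 on the plus strand, with the match at -167 to -160, and the Trib3 sequence is chr3:161275534-161275783 on the minus strand, with the match at -21 to -14.
Chac1: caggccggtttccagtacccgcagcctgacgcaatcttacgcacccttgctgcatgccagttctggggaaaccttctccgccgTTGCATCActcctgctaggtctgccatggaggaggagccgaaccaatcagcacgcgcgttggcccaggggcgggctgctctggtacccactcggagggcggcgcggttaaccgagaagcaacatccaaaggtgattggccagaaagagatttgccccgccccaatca
Trib3: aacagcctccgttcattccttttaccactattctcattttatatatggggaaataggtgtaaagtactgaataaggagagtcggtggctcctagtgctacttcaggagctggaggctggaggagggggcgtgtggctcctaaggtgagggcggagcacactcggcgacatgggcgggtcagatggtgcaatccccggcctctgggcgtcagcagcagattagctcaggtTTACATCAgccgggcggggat
2 further elements, ERSE-II (ATTGG, then 1 base, then CCACG) and the XBP1 element TGACGTGG, were in 0.0508% and 0.595% of promoters and in 0 of the 8. The letters CCACG end ERSE and ERSE-II and lie, reversed, in the XBP1 element, so matches of these 3 can overlap.

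Trib3 (ENSRNOG00000007319, minus strand of chromosome 3, 147813473 to 147819571 in the deposited annotation) was at 77.0 CPM in DA-5-3GFP and 19.3, 77.7 and 82.7 CPM in #1, #2 and #3. Subclones #2 and #3 were near the control, and #1 was far below it. The log2 fold change over the 3 was -0.36 (SE 0.70, 95% interval -2.02 to 1.30, edgeR adjusted p = 0.740), and without #1 it was 0.07 (adjusted p = 0.898).

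Asns (ENSRNOG00000007546, minus strand of chromosome 4, 33743364 to 33761163) was at 330 CPM in DA-5-3GFP and 210, 340 and 285 CPM in #1, #2 and #3. The control was inside the range, and the log2 fold change was -0.24 (SE 0.30, 95% interval -0.95 to 0.47, edgeR adjusted p = 0.590). The interval allows a fold between 0.516 and 1.38, the narrowest of the 10 on the log scale.

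Chac1 (ENSRNOG00000014387, plus strand of chromosome 3, 111160205 to 111163425) was at 105 CPM in DA-5-3GFP and 7.21, 63.0 and 33.7 CPM in #1, #2 and #3. All 3 subclones were below the control, with log2 differences from it of -3.86, -0.74 and -1.64 in #1, #2 and #3. The fitted log2 fold change was -1.60 (SE 0.86, 95% interval -3.65 to 0.45, edgeR adjusted p = 0.233), and it was called without #2, at -2.35 (adjusted p = 0.0044). The highest subclone was 8.73-fold the lowest, a ratio that 4.85% of all genes tested reached, against 4.28-fold for Trib3 (9.96% of genes), 2.64-fold for Atf4 (19.7%) and 1.61-fold for Asns (47.8%).

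The calls without #2 stand beside larger counts over the 14704 genes tested in that fit. The share of the 10 called was close to the share of all genes, so these calls do not set the 10 apart. With #1 and #3 alone, edgeR called 2 of the 10 higher (Eif2ak3 and Xbp1) and 2 lower (Atf4 and Chac1), and over all genes 3096 higher and 2476 lower. With #3 left out instead, 354 genes were called higher and 103 lower, and 0 of the 10 genes were called.

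Between genes, levels were compared per length as deposited FPKM, averaged over the 4 libraries. Atf4 was first (253 FPKM, range over libraries 121 to 348), followed by Asns (129, range 93.9 to 151) and Hspa5 (119, range 76.6 to 180), whose ranges overlap one another and that of Atf4. Chac1 (32.8, range 4.57 to 66.0), Trib3 (32.6, range 9.91 to 41.7), Ddit3 (19.3, range 14.4 to 25.7) and Xbp1 (15.5, range 5.83 to 25.5) formed an overlapping middle group. The 3 sensors were lowest, with Atf6 at 3.54 FPKM (range 2.73 to 3.99), Eif2ak3 at 2.22 FPKM (range 0.990 to 3.14) and Ern1 at 1.66 FPKM (range 1.16 to 2.18). The ranges of neighbouring sensors overlap, and all 3 lie below the range of Xbp1.

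The rest of the pathway was read from 8 lists of genes, 116 names in all, of which 107 were tested. Of these 107, 6 were called higher and 4 lower (9.35% in all, beside 13.8% of all genes tested), and DESeq2 called 14 higher and 4 lower. The edgeR counts were 20 higher and 19 lower without #2, 1 higher and 0 lower without #3, and 2 higher and 7 lower with the correction for gene length. The counts without #2 stand beside the larger counts over all genes given above for that fit. The median log2 fold change over the 107 was 0.10, beside 0.06 for all genes.

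**Figure D3:**
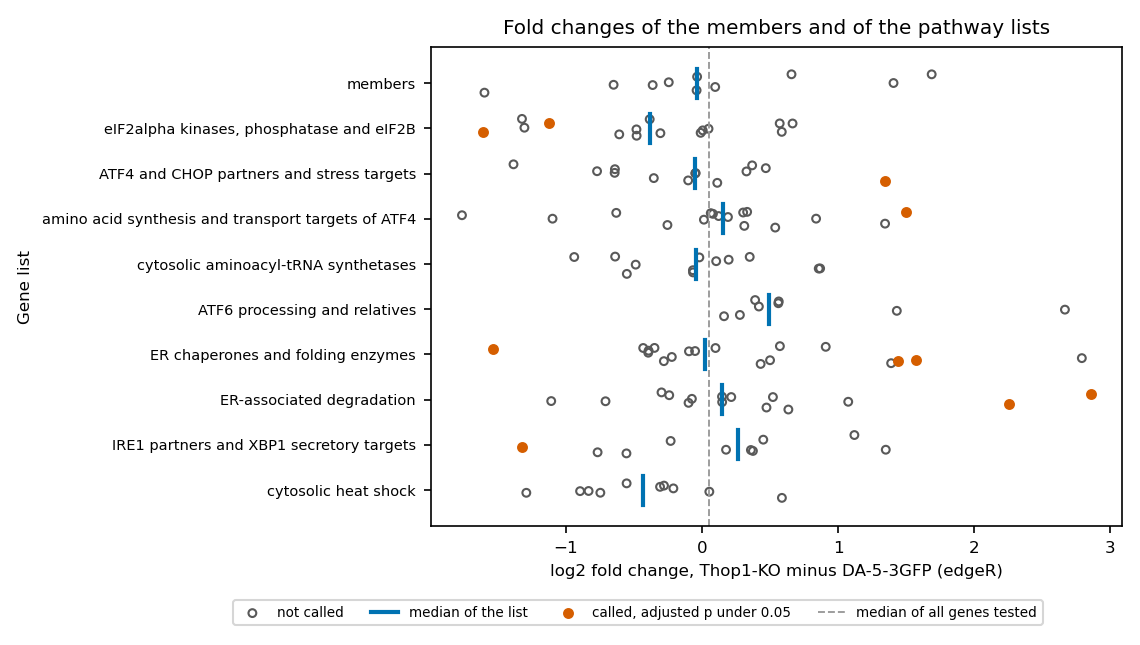
log2 fold change (Thop1-KO minus DA-5-3GFP, edgeR) of each tested gene, by list, with called genes in orange, list medians in blue and the median of all genes dashed. Called genes lie on both sides of 0, and no list has more than 3 of them.

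Upstream of ATF4, the list of the other eIF2alpha kinases, the eIF2 and eIF2B subunits and the eIF2alpha phosphatases had 0 of 15 genes called higher and 2 lower, with a median of -0.38. Both are subunits of eIF2 itself, the factor that brings the initiator tRNA to the ribosome. Eif2s2, the beta subunit, was at 317 CPM in DA-5-3GFP and 84.3, 122 and 105 CPM in #1, #2 and #3, so that it fell by 1.61 on the log2 scale (SE 0.26, edgeR adjusted p = 0.0152). Eif2s1, the alpha subunit that PERK phosphorylates, was at 194 CPM in DA-5-3GFP and 95.8, 99.4 and 71.4 CPM in #1, #2 and #3, and fell by 1.12 (SE 0.26, edgeR adjusted p = 0.0382). In both genes the subclones lay close together and well below the control. With #3 left out, neither was called, and nor were Dnajb9 and Spcs3, given below. Most of the genes named below as called higher also lost their call in that fit.

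Downstream of ATF4, 1 gene was called in each of 2 lists. Among 13 partners of ATF4 and CHOP and their stress targets, Ddit4, an inhibitor of mTORC1, was at 40.7 CPM in DA-5-3GFP and 82.2, 104 and 124 CPM in #1, #2 and #3, and rose (log2 fold change 1.35, SE 0.33, edgeR adjusted p = 0.0419). The next in that list, Nupr1, had 2.49 CPM in DA-5-3GFP and 0.656, 1.13 and 1.06 CPM in #1, #2 and #3, and a log2 fold change of -1.38 that was not called (edgeR adjusted p = 0.178). Among 16 genes of amino acid synthesis and transport, Pycr1, which completes proline synthesis, was at 34.7 CPM in DA-5-3GFP and 96.4, 84.1 and 114 CPM in #1, #2 and #3, and rose (2.83-fold, SE 0.30 on the log2 scale, edgeR adjusted p = 0.0270). Aldh18a1, an earlier step of the same route, had a log2 fold change of 1.35 and was not called (edgeR adjusted p = 0.0911). The medians of these lists were -0.05 and 0.16. The next list held 12 genes, cytosolic aminoacyl-tRNA synthetases and Xpot, which encodes a tRNA exporter. None was called (2 higher, Mars1 and Xpot, and 1 lower at an unadjusted p under 0.05, DESeq2 1 higher), with a median of -0.04. The smallest p-values there belonged to Mars1 (log2 fold change 0.86, edgeR adjusted p = 0.0712) and Eprs1 (-0.94, edgeR adjusted p = 0.0982).

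On the ATF6 side, 0 of 8 genes of ATF6 processing and its relatives were called by edgeR (1 higher at an unadjusted p under 0.05, and 1 by DESeq2), and the median was 0.49. Creb3l2, a related membrane-bound factor, had 0.606 CPM in DA-5-3GFP and 5.84, 2.09 and 3.73 CPM in #1, #2 and #3, with a log2 fold change of 2.67 (edgeR adjusted p = 0.0738). Creb3l4, another, had a log2 fold change of 1.43 (edgeR adjusted p = 0.225). The control values of Creb3l2 and Creb3l4 rest on only 9 and 8 counts.

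Among 18 ER chaperones and folding enzymes, the classical ATF6 and XBP1 targets, 2 were called higher and 1 lower, with a median of 0.02. That is 16.7% called, beside 13.8% of all genes tested. Hyou1, a large HSP70 relative that exchanges nucleotide on BiP, was at 66.3 CPM in DA-5-3GFP and 243, 159 and 190 CPM in #1, #2 and #3, and rose (log2 fold change 1.57, SE 0.33, edgeR adjusted p = 0.0287). Txndc5, a disulfide isomerase, was at 56.3 CPM in DA-5-3GFP and 192, 125 and 142 CPM in #1, #2 and #3, and rose as well (log2 fold change 1.44, edgeR adjusted p = 0.0370). Dnajb9, a BiP co-chaperone, was at 10.2 CPM in DA-5-3GFP and 3.22, 3.79 and 3.51 CPM in #1, #2 and #3, and fell by 1.53 on the log2 scale (edgeR adjusted p = 0.0418). Of the 15 tested genes with ERSE in the promoter, 2 were called higher and 0 lower, with a median of 0.10.

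Degradation and secretion genes had shares called near or below that of all genes tested (13.3% and 10%, beside 13.8%). Of 15 tested genes of ER-associated degradation, 2 were called higher and 0 lower, with a median of 0.15. Of these, Edem3, which trims mannose from misfolded glycoproteins, was at 0.942 CPM in DA-5-3GFP and 4.47, 4.53 and 4.62 CPM in #1, #2 and #3 (log2 fold change 2.26, edgeR adjusted p = 0.0375). Of 10 IRE1 partners and secretory targets of XBP1, 0 were called higher and 1 lower, with a median of 0.27. Spcs3, a subunit of signal peptidase, was at 46.6 CPM in DA-5-3GFP and 15.4, 21.7 and 18.9 CPM in #1, #2 and #3, and fell by 1.32 (edgeR adjusted p = 0.0360). Sec24d, of the COPII vesicle coat, had a log2 fold change of 1.35 and was not called (edgeR adjusted p = 0.0775).

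The subclones differed among themselves along the ATF4 arm. This order was noticed in the values and is given as a description, with no test. Subclone #1 was the lowest of the 3 in 5 of 5 of Atf4, Ddit3, Trib3, Asns and Chac1, where 37.2% of all genes tested had #1 lowest. The median log2 difference of #1 from the mean of the other subclones was -1.17 over these 5 and -0.01 over all genes. It was also lowest in 10 of 13 ATF4 and CHOP partners and stress targets (median difference -0.73) and 12 of 16 amino acid genes (-0.71). The same held for 11 of 12 genes of the aminoacyl-tRNA synthetase list, Xpot included (-0.59). Over these 3 lists and the 5 genes together that is 38 of 46 (82.6%), and in 10 of the 46 (21.7%) the level in #1 was below that of both others by a factor of more than 2, beside 5.58% of all genes. Ddit3 and Mars1, which overlap on opposite strands, had the same order of subclones and are counted as separate genes here.

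The other members and the other pathway lists did not share that order, where 37.2% of all genes tested had #1 lowest. Subclone #1 was lowest in 1 of 5 of Eif2ak3, Ern1, Atf6, Xbp1 and Hspa5, 2 of 18 ER chaperones, 2 of 10 IRE1 and XBP1 genes, 5 of 15 degradation genes, 3 of 8 ATF6 relatives and 3 of 15 eIF2alpha kinases and eIF2 genes. Outside the pathway, it was lowest in 7 of 10 cytosolic heat shock genes and 6 of 8 tested fibroblast markers, and in 3 of 9 ESC markers. The summed fibroblast markers were 440 CPM in #1, 859 in #2 and 571 in #3, and their part in the order was not tested. Among all tested genes whose promoter holds TGATGNAA, #1 was lowest in 108 of 199 (54.3%), against 37.5% of all tested genes with a promoter in the table. The 199 include 14 of the 46 genes above, so the sets are not separate. Within the 46 genes, #1 was lowest in 13 of these 14 and in 21 of the 26 whose promoter lacks the letters. The rest have no promoter in the table.

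**Figure D4:**
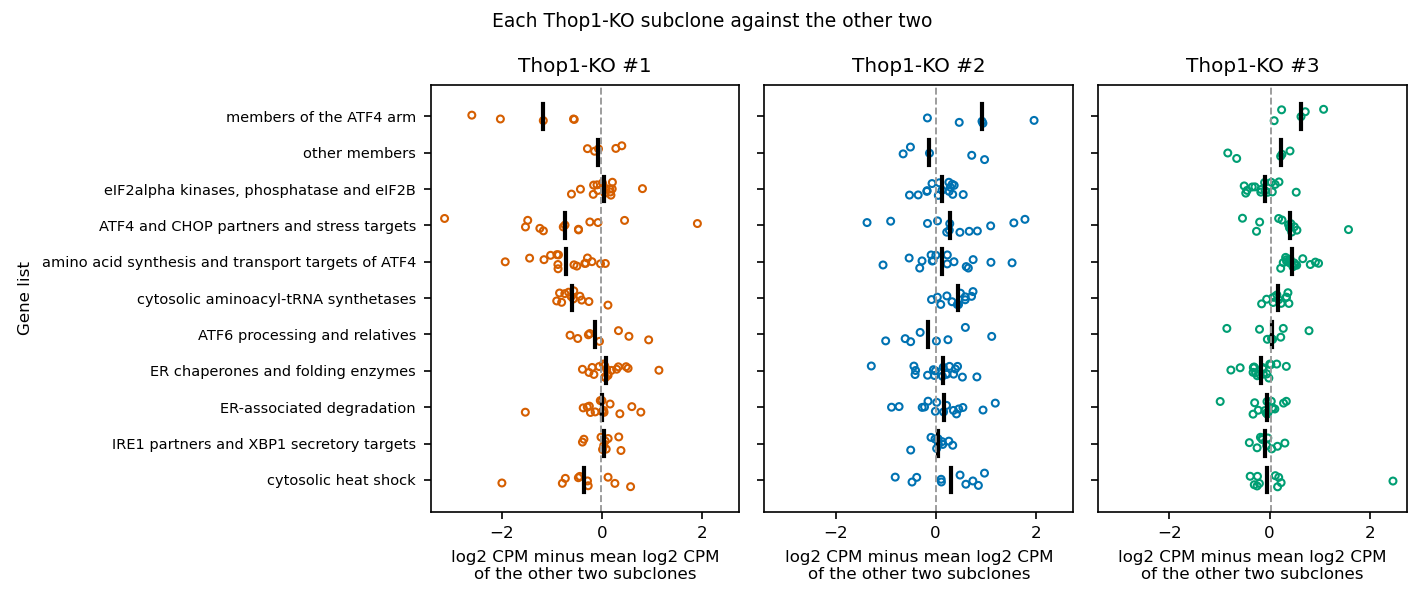
log2 CPM of each subclone minus the mean log2 CPM of the other two, by gene group, 1 circle for each tested gene, with black bars for group medians and the dashed line for the median of all genes. In #1, the 5 genes of the ATF4 arm and the 3 ATF4 lists have medians between -1.17 and -0.59, while ER chaperones and degradation genes are near 0.

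Cytosolic heat shock genes, which answer unfolded protein outside the ER, were read for comparison. None of the 10 tested was called by edgeR (1 higher and 2 lower at an unadjusted p under 0.05, DESeq2 1 lower), and the median was -0.43. Dnaja1, an HSP40 co-chaperone, was at 198 CPM in DA-5-3GFP and 54.6, 120 and 68.2 CPM in #1, #2 and #3 (log2 fold change -1.29, edgeR adjusted p = 0.0815). Hspd1, the mitochondrial HSP60, was at 856 CPM in DA-5-3GFP and 441, 631 and 458 CPM in #1, #2 and #3 (log2 fold change -0.75, edgeR adjusted p = 0.0980).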

How the data were processed

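Poly(A) RNA was sequenced from 4 rat ESC libraries with a kit that does not mark strand. The authors removed noise and adaptors with the FASTX toolkit. The submitters' processing notes name HISAT2 2.0.5 and featureCounts 1.5.0-p3, while the genome build and the strand setting are not given in the sources used here. The authors deposited raw counts per gene and FPKM values, which equal those counts over gene length times 1 factor for each library. The table also holds gene descriptions and coordinates, which were used as given.

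The counts went into edgeR 4.0.16 under R 4.3.3 (filterByExpr with a minimum count of 10, TMM, quasi-likelihood test, Benjamini-Hochberg over 15028 genes, called at an adjusted p under 0.05). SE is the log2 fold change over the root of the F statistic. No pair of libraries agreed within sampling noise in a chi-square test of their counts. Subclone differences used log2(CPM + 0.5). The alternatives were other scalings, other filters, DESeq2 1.42.0, limma 3.58.1 on log2 FPKM values with a pseudocount of 1 or 0.1, a fold rule of 2, a loess correction for gene length (span 0.3) and leaving out each subclone. Figures were made with Python 3.11.15, pandas 2.3.3 and matplotlib 3.10.9.

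The members and lists were chosen with earlier results of these data known. The genes named are the members, Thop1 and, of each list, the called genes (at most 4 in each direction) and, where fewer than 2 were called, the 2 with the smallest p-values. A called gene of these lists is not reported here by name. Of the lists, marker genes are given as sums, with Pou5f1, Nanog, Lama1, Gata4 and Col4a1 as examples chosen after their values were seen. The names Zfp42, Col1a2, Bbc3, Tnfrsf10b, Cth, Gars1, Srp54, Hspa1a and Hspa1b were not matched. RefSeq promoters (GRCr8) were matched by symbol for 8 of the 10 members, not for Ern1 and Atf6.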

Additional observations from a re-analysis of the deposited data

How the results depend on the processing

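No member passed the test in edgeR with another scaling, another filter, the fold rule or the gene-length correction, or in limma. The count of members called higher was 2 with DESeq2. When a single subclone was dropped, 0 to 2 members were called higher and 0 to 2 lower. All genes called higher numbered 1295 in the fit reported, 1987 with DESeq2, 332 with limma (pseudocount 1) on unfiltered values and 354 to 3096 with a subclone left out. Those called lower numbered 777, and 103 to 2476 with a subclone left out. Pathway genes called higher numbered 6, against 14 with DESeq2, 0 with limma on unfiltered values, 2 with the gene-length correction and 1 to 20 with a subclone left out. Those called lower numbered 4, against 2 with library size alone, 1 with each of the 3 limma settings, 7 with the gene-length correction and 0 to 19 with a subclone left out. The gene-length correction moved the median log2 fold change of all genes from 0.06 to -0.10.

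The sign of 4 members turned. Atf6 was at 0.021 with library size alone and -0.13 to 0.12 with a subclone left out. Ddit3 was at 0.035 with library size alone, 0.16 with the gene-length correction and -0.32 to 0.15 with a subclone left out. Hspa5 was at -0.21 with the gene-length correction and -0.30 to 0.34 with a subclone left out, and Trib3, at -0.36 in the fit reported, was at -0.67 to 0.068 with a subclone left out, above 0 without #1. The other 6 members kept their direction under all 13 alternatives. No paired analysis was possible because DA-5-3GFP has a single library.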

Other observations

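Slc7a3, a transporter of cationic amino acids, had the pattern of Chac1 at a higher level and was picked out after its values were seen. It was at 1115 CPM in DA-5-3GFP and 111, 549 and 326 CPM in #1, #2 and #3, with a log2 fold change of -1.76 that was not called (SE 0.67, edgeR adjusted p = 0.118). Stc2, a secreted glycoprotein, was picked out in the same way. It was at 13.6 CPM in DA-5-3GFP and 2.33, 24.3 and 24.5 CPM in #1, #2 and #3, so that #1 alone was below the control. Herpud1, of ER-associated degradation and also picked out so, was at 104 CPM in DA-5-3GFP and 27.4, 97.6 and 65.5 CPM in #1, #2 and #3. Slc7a3, Stc2 and Herpud1 all had #1 lowest, and other genes of the lists had #1 highest. Gadd45a, from the list of ATF4 and CHOP partners and stress targets, was at 8.82 CPM in DA-5-3GFP and 22.7, 4.58 and 6.96 CPM in #1, #2 and #3. For Ppp1r15a, from the list of eIF2alpha kinases and phosphatases, the log2 difference of #1 from the mean of the other subclones was 0.81.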
